A study of Mus musculus with 2 samples.

Results

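The Hox genes are the homeobox transcription factor genes of 4 chromosomal clusters, Hoxa, Hoxb, Hoxc and Hoxd, numbered by paralogue group from 1 at the 3′ end of a cluster to 13 at its 5′ end. Members were all genes whose symbol is Hox with a cluster letter and a number, without antisense or opposite-strand transcripts, that had a probe set annotated to that gene alone. This gave 33 of the 39 Hox genes in the reference gene table, read by 48 probe sets, among 18193 genes on the array. The other Hox genes are not analysed here. Of the members, 22 had 1 probe set and 11 had more.

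Expression was measured on Affymetrix 1-colour arrays in Tie2Cre lineage cells that were sorted at embryonic day 12.5 from the hearts of mouse embryos. The Tie2Cre line has a Cre transgene driven by the promoter of the endothelial receptor gene Tie2 (Tek), so it marks endothelium, endocardium and their descendants, such as cushion mesenchyme, and also blood cells. Flow sorting kept live cells of this lineage and removed those with CD41, CD45 or Ter119, surface proteins of blood cells. The control array (Tie2Cre;Tbx20 +/loxP) has 1 working and 1 floxed allele of Tbx20, a T-box transcription factor gene of the heart, and the mutant array (Tie2Cre;Tbx20 loxP/-) has 1 floxed and 1 null allele. Both carry Tie2Cre, so control cells also lose their floxed allele where Cre acts, and the null allele lies in every cell of the mutant embryos. Each genotype has 1 array, and the labels do not tell if embryos were pooled. There is therefore no replicate check and no test between genotypes, and every difference below is between these 2 arrays. In sorted bulk RNA, fewer cells that express a gene and less RNA per cell cannot be told apart.

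Hox proteins bind DNA through a homeodomain, largely together with TALE homeodomain partners of the Pbx, Meis and Pknox families, and give cells their position along the body axis. Genes at the 3′ end of a cluster are switched on early and anteriorly, in part by retinoic acid, and genes at the 5′ end later and posteriorly. Polycomb complexes keep Hox clusters silent and trithorax complexes keep them active. In the heart region, genes of the first paralogue groups are known from second heart field progenitors and from cardiac neural crest.

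The values are MAS5 signals, a linear brightness per probe set that has no detection call here. Each array's median over its probe sets other than array controls, 91.3 (control) and 82.4 (mutant), served as a floor. Each gene was read by its brightest probe set (by mean log2 signal of both arrays) and is called measured where that probe set lies above the floor on both arrays. Above the floor means in the brighter part of the array, and under it does not mean absent. A gene above the floor on 1 array has only a bound, computed with the other array's floor in place of its signal there. Signals of different genes come from different probes and are not compared with each other.

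The lineage markers fitted the label, since all 8 endothelial and endocardial markers lay above the floor on both arrays, with Cdh5, an endothelial cadherin gene, at 10886 and 10975 in control and mutant. Tbx20 gave strong signal in both, 60.2% to 85.9% of control over its 3 probe sets in the mutant, and as the deleted exons are not named in the labels, this may check nothing about the deletion. Over the 10665 measured genes the log2 ratio, mutant over control, had a median of -0.01 and an SD across genes of 0.38.

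Hox genes were mostly under the floor, and those above it lay in paralogue groups 2 to 7 of the Hoxa, Hoxb and Hoxc clusters. Of the 33 members, 4 were above the floor on both arrays (12.1%), against 58.6% of all genes. Another 3 were above it in the mutant only (2.56% of all genes) and 1 in the control only (2.33% of all genes), so 8 (24.2%) passed on at least 1 array, against 63.5% of all genes. The remaining 25 were under the floor on both arrays, with control signals from 1.40 to 70.1 (median 23.7) and mutant signals from 0.937 to 75.4 (median 21.7). Ratios of such dim signals are not interpreted here.

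**Figure D1:**
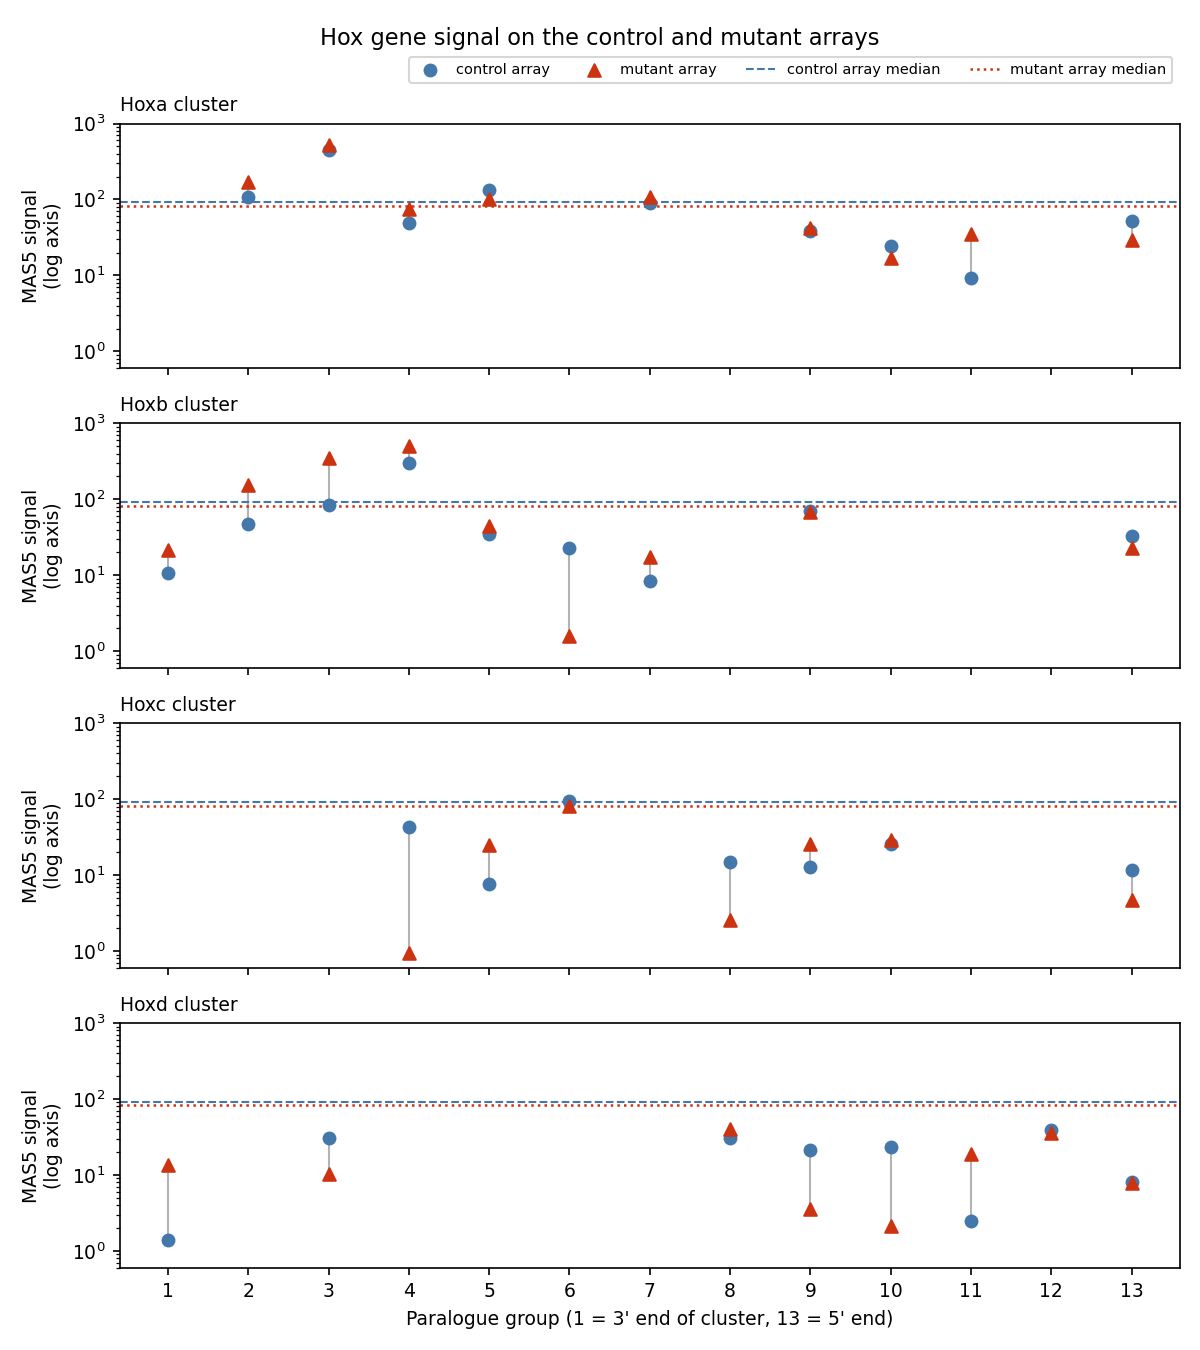
MAS5 signal (log axis) of each Hox gene's chosen probe set on the control array (circles) and the mutant array (triangles), by paralogue group and cluster, with each array's median as a line (91.3 control, 82.4 mutant). Points above the lines fall in groups 2 to 7, and groups 8 to 13 and the Hoxd cluster stay under both lines; heights of different genes are not comparable.

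By cluster, Hoxa on chromosome 6 had 3 of its 9 members above the floor on both arrays, Hoxa2, Hoxa3 and Hoxa5, and Hoxa7 in the mutant only. Hoxb on chromosome 11 had 1 of 9 on both arrays, Hoxb4, and its neighbours Hoxb2 and Hoxb3 in the mutant only. Hoxc on chromosome 15 had 0 of 7 on both arrays and Hoxc6 in the control only. Hoxd on chromosome 2 had 0 of 8 members above the floor on either array, and all 10 of its probe sets were under it. Hoxd signals ran from 1.40 to 39.5 in the control and up to 40.5 in the mutant.

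By paralogue group, group 1 (Hoxb1 and Hoxd1) was under the floor, with signals of at most 10.8 (control) and 21.7 (mutant). Groups 1 to 3 together held 7 members, of which 4 passed on at least 1 array, and groups 4 to 7 held 10, of which 4 passed. Groups 8 to 13, the 5′ genes of posterior body levels, held 16 members with 20 probe sets, and 0 of them passed on either array. Hoxb9 among them came nearest to the floor, at 70.1 on the control array and 67.8 on the mutant array. At the limit of the floor stood Hoxa7 (90.3 in the control), Hoxc6 (81.6 in the mutant) and Hoxb3 (84.4 in the control), and Hoxa4 was just outside it in the mutant at 75.4. With the floor at each array's 25th percentile, 13588 of all 18193 genes passed on both arrays, and of the 33 members 17 did. Among them were Hoxa9, Hoxa13, Hoxb9, Hoxb13 and Hoxc10 of groups 8 to 13, and Hoxd8 and Hoxd12 of the Hoxd cluster. Both the number above the floor and its limits by paralogue group and cluster thus depend on where the floor is set.

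**Figure D2:**
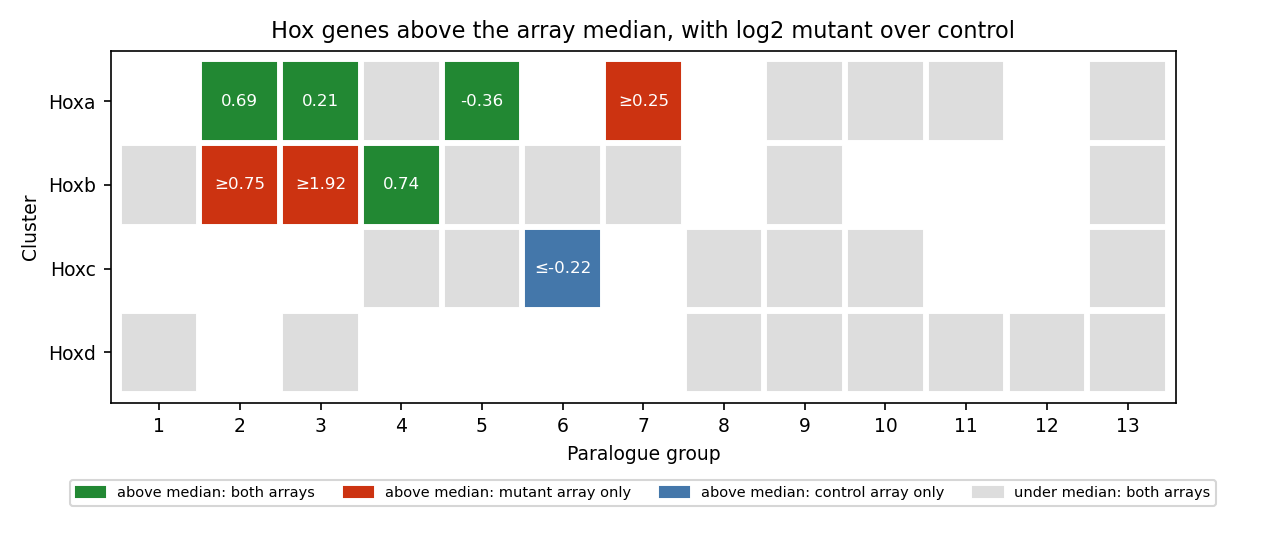
Each Hox gene with a single-gene probe set as a tile by cluster and paralogue group, coloured by whether it lies above the median of both arrays, 1 array or neither; white spaces have no such gene or no single-gene probe set. Numbers are log2 mutant over control, with ≥ or ≤ where only a bound can be given, and Hoxb3 is at 1.92 or more.

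Before the levels of single members, the promoter sequences of the 4 members measured on both arrays (Hoxa2, Hoxa3, Hoxa5 and Hoxb4) are shown, to describe their motif letters. No motif is set against a direction of change, as Hoxa3 and Hoxa5 differ by less than the SD between probe sets given below. The windows are RefSeq sequences of GRCm38.p6, 250 bases before to 50 bases after the annotated start, 5′ to 3′ on the gene's strand. Capitals mark the motifs searched on both strands, TGATNNAT (the composite site of Pbx with a Hox protein), TGACAG (the Meis and Pknox site) and AGGTGTGA (the T-box site).
Hoxa2: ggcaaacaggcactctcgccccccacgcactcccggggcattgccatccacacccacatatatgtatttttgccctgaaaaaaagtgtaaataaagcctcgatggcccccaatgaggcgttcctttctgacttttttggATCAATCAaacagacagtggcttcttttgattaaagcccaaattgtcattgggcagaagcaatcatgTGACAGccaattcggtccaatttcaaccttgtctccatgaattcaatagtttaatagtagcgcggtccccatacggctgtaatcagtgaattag
Hoxa3: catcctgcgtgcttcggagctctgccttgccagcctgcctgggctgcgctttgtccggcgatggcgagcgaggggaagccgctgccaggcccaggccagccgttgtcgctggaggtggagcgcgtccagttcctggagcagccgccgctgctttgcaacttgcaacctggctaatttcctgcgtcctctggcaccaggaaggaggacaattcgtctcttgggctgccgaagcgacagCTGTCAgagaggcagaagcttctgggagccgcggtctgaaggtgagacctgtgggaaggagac
Hoxa5: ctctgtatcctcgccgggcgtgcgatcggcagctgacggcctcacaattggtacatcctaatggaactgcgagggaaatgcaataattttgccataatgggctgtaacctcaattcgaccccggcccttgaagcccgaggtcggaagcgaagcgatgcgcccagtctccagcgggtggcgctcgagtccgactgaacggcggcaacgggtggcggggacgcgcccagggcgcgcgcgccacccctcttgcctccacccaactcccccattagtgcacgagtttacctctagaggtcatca
Hoxb4: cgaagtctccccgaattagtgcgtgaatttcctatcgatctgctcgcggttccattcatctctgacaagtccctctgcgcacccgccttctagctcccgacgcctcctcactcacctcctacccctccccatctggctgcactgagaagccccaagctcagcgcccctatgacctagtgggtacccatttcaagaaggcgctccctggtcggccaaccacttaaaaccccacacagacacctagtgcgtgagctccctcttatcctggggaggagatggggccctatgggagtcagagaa
These windows lie at chr6:52164782-52165081 (minus strand) for Hoxa2, chr6:52213018-52213317 (minus) for Hoxa3, chr6:52204538-52204837 (minus) for Hoxa5 and chr11:96318017-96318316 (plus) for Hoxb4. The annotated Hoxa3 start used here lies between the windows of Hoxa6 and Hoxa7, on the 5′ side of Hoxa5. Whether these cells use that start was not tested. The Hoxa2 window holds 1 Pbx-Hox composite site and 1 Meis site, and the Hoxa3 window holds 1 Meis site. The windows of Hoxa5 and Hoxb4 hold none of the 3 motifs, which says only that these letters are not in these windows. The T-box letters are in none of the 4. Of 32841 promoters of this length in the table, 8.85% hold the composite site, 19.2% the Meis site and 1.28% the T-box site. In the table, 22 Hox genes have 24 promoters, of which 4 (16.7%) hold the composite site, 2 (8.33%) the Meis site and 1 (4.17%, Hoxd9) the T-box site. Hox promoters held a median of 14.5 CG dinucleotides, against 7 over all promoters. A match is a description of letters and not of binding, and Hoxb2, Hoxb3 and Hoxc6 have no entry in the table.

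Hoxb3 was under the floor in the control and above it in the mutant by both of its probe sets. Its brighter probe set gave 84.4 on the control array and 346 on the mutant array, and its other probe set, designed on a different source sequence, read 66.1 and 264. The difference is at least 3.79-fold by the first and at least 2.89-fold by the other. The brighter one differs 4.10-fold as deposited, a ratio that rests on a control signal under the floor. Hoxb3 acts in the hindbrain and pharyngeal region and has been tied to endothelial sprouting.

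Hoxb2, the next gene on the 3′ side and a factor of the hindbrain, went from 46.8 on the control array to 153 on the mutant array with its single probe set. That is at least 1.68-fold higher in the mutant against the floor, and 3.27-fold as deposited. Hoxb4, the neighbour on the other side and a factor known from blood stem cells, went from 297 in control cells to 498 in mutant cells, 1.67-fold higher (log2 0.74). Its second probe set read 95.5 and 146, log2 0.61, but was designed on the same source sequence and is no separate check. All 5 probe sets of Hoxb2, Hoxb3 and Hoxb4 were higher in the mutant. Those of Hoxb2 and Hoxb3 passed the floor only there, so nothing is read from this count. Further 5′ in the cluster, Hoxb5 read 35.3 and 44.0, Hoxb6 23.0 and 1.58 and Hoxb7 8.35 and 17.3, all under the floor.

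Hoxa2, which patterns the second pharyngeal arch, was 1.61-fold higher in the mutant (log2 0.69) by its 1 probe set, at 107 in control cells and 172 in mutant cells. Hoxa3, a factor of the third pharyngeal arch, read 448 and 518, log2 0.21, and its second probe set above the floor, from the same source sequence, read 98.2 and 113, log2 0.20. The 2 other Hoxa3 probe sets were under the floor, at 30.3 and 41.8 and at 7.40 and 13.3 in control and mutant. The 2 measured Hoxa3 probe sets were higher in the mutant by a small amount, but as they share a source sequence they are no separate check. The ratios of the 2 under the floor are not interpreted. For comparison, probe sets of 1 gene differ in log2 ratio with an SD of 0.37 at mean signals of 200 to 1000 and 0.45 under 200, an error between probes of the same RNA and not between animals. The log2 ratios of Hoxa2 and Hoxb4 exceed that SD, and that of Hoxa3 does not, which is no call of a difference between genotypes. Over all measured genes the log2 ratio had an SD across genes of 0.50 at mean signals under 200 and 0.40 at 200 to 1000.

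Hoxa5, known from lung and trunk development, was the measured member that was lower in the mutant, at 132 on the control array and 103 on the mutant array, log2 -0.36. Its other probe set, under the floor, went the other way, from 43.9 to 57.3, and the difference of the first is smaller than the SD between probe sets. Hoxa7 read 90.3 and 108, at least 1.19-fold higher in the mutant. Hoxc6 read 95.7 and 81.6, at least 1.16-fold lower. Both lay close to the floor on each array, and the floors themselves differed by log2 -0.15. Hoxa4, the paralogue of Hoxb4, read 49.6 and 75.4, under the floor on both arrays.

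**Figure D3:**
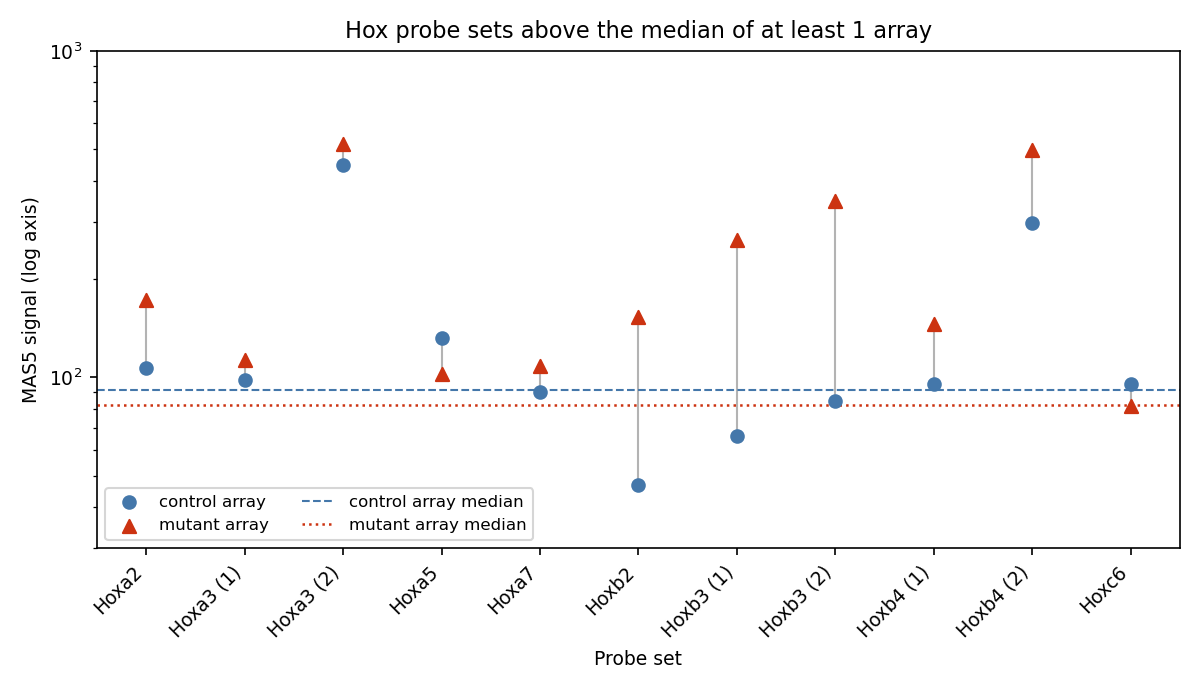
MAS5 signal (log axis) on the control array (circles) and the mutant array (triangles) of the 11 Hox probe sets that lie above the median of at least 1 array, with the array medians as lines; numbers in brackets tell apart probe sets of 1 gene. Both Hoxb3 probe sets go from under the control median (84.4 and 66.1) to 346 and 264 in the mutant, and Hoxa5 and Hoxc6 are the only genes shown that are lower in the mutant.

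Of the 4 measured members, 3 were higher and 1 lower in the mutant, against 49.0% higher among all measured genes. Their median log2 ratio was 0.45, against -0.01 over all measured genes, and 2 of 4 (Hoxa2 and Hoxb4) were at least 1.5-fold higher, against 4.37%. Dim genes passed more often, with 7.78% at mean signals under 200, as for Hoxa2, and 5.78% at 200 to 1000, as for Hoxb4. Hoxb2 and Hoxb3 were at least 1.5-fold higher as bounds, which makes 4 members, beside 4.63% of all genes counted this way. As both passed the floor only through the mutant, they had to be higher there, and nothing is read from that count. At 2-fold, 0 measured members were higher, against 0.647%, and with bounds 1 member was (Hoxb3), beside 0.718%, from which nothing is read for the same reason. At 2-fold 0 members were lower, against 1.67%, and at 1.5-fold 0, against 7.41%. Hoxa7, Hoxb2 and Hoxb3 passed only through the mutant and could not count as lower at these folds, so nothing is read from these counts either. With so few members above the floor these counts describe the named genes and no more.

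**Figure D4:**
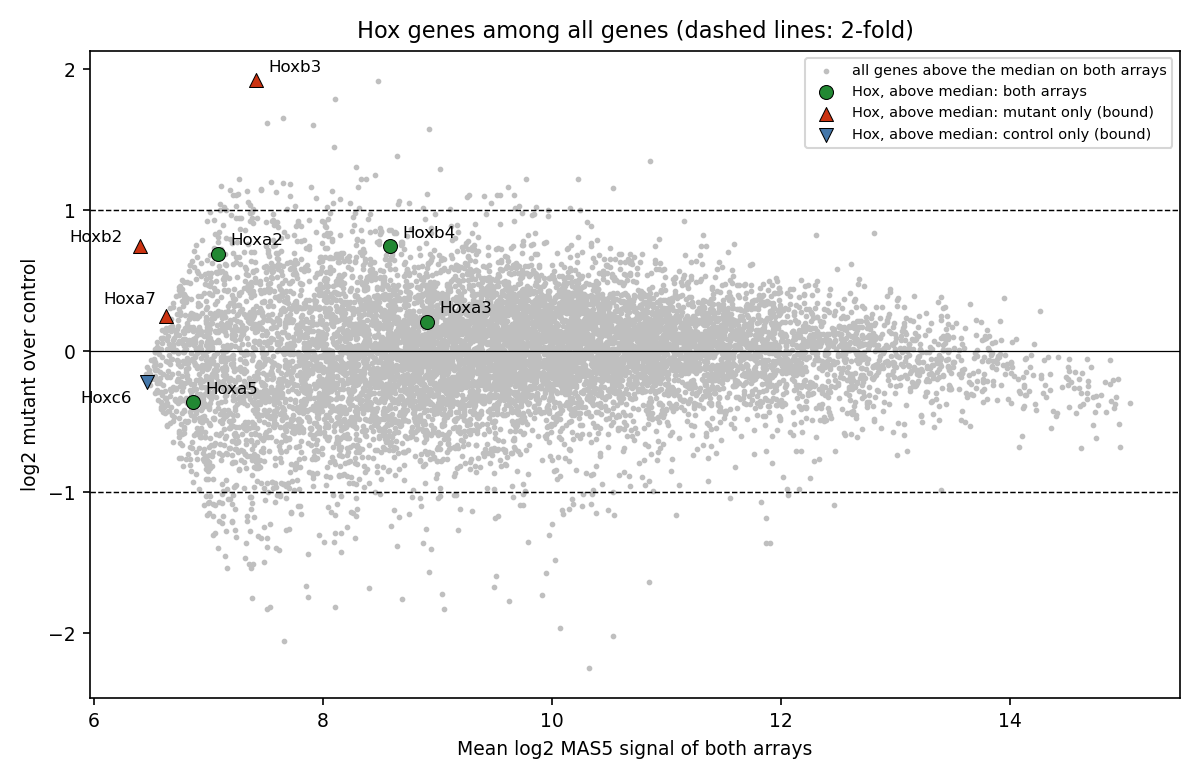
log2 ratio of mutant over control against mean log2 MAS5 signal of both arrays, with the 10665 measured genes in grey, the 4 measured Hox genes as circles and bounds as triangles; dashed lines mark 2-fold. Hoxb3 is drawn at its bound of 1.92, while Hoxa3 (0.21) and Hoxa5 (-0.36) lie inside the cloud.

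The TALE cofactors of Hox proteins were mostly above the floor. Of 8 listed genes on the array, 7 were above it on both arrays, 3 higher and 4 lower in the mutant, with a median log2 ratio of -0.14. With unsuffixed probe sets only, that median was 0.32. Meis1 read 316 and 318. Meis2 read 3843 and 3446, with log2 ratios from -0.61 to 0.53 over its 4 probe sets, and Pbx3 1395 and 1264, with its other probe set higher at 0.20. Pbx2 was at 0.54, with its lowest probe set at 0.13, and Pknox1 at 0.52, while other measured Pknox1 probe sets reached down to -0.14, and Pknox2 was at -0.58. Pbx4 went from 167 in control cells to 67.3 in mutant cells, at least 2.03-fold lower, from a dim signal.

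Among upstream factors, Cdx1, Cdx2 and Cdx4, which switch on Hox genes in the tail, were under the floor on both arrays. Egr2, a hindbrain regulator of Hoxa2 and Hoxb2 and also an immediate early gene, read 2832 and 1571, log2 -0.85. In the retinoic acid list, 10 of 14 genes were measured, 5 higher and 5 lower, with a median of 0.13 that turned to -0.06 with the floor at the 25th percentile or with unsuffixed probe sets. Aldh1a2, which makes retinoic acid and is also an epicardial gene, read 190 and 375, log2 0.98. Crabp1, a retinoic acid binding protein gene, was at -0.86, the nuclear receptor gene Rxra at 0.65 and Rdh10, of retinal synthesis, at 0.53, with its other probe set at -0.19. Rarb, itself a target of retinoic acid, read 113 and 94.6, log2 -0.25.

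Genes of the chromatin complexes that hold Hox clusters silent or active were measured nearly throughout. Of 28 Polycomb genes on the array, 26 were measured, 12 higher and 14 lower, with a median of -0.03 that became 0.06 with the median over probe sets and 0.12 with unsuffixed ones. Ezh2, the methyltransferase of the complex, read 2053 and 2226, log2 0.12. Pcgf1, of a variant Polycomb complex, read 184 and 374, 2.03-fold higher, Mtf2 was at 0.80 with a lowest probe set of -0.10, and Phf1 at -0.63. Of 17 trithorax genes, 17 were measured, 11 higher and 6 lower, with a median of 0.20. Kmt2a, the methyltransferase that maintains Hox expression, was at -0.27, with its other probe set at 0.21. Brpf1, of the Kat6a acetyltransferase complex, read 228 and 541 (log2 1.25), Rbbp5 was at 0.57 and Dpy30 at 0.49. Geminin (Gmnn), which can bind Hox proteins, was at 0.40.

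**Figure D5:**
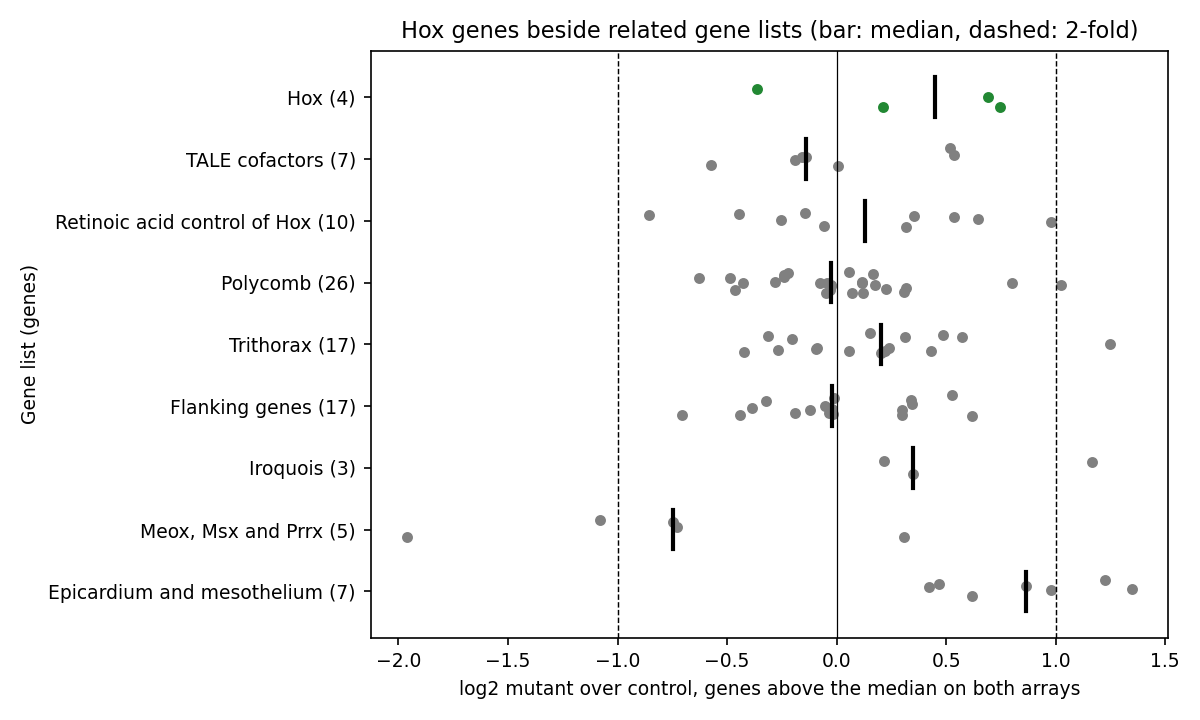
log2 ratio of mutant over control for measured genes (points) of the Hox family and of related lists, with the number of genes in brackets, a bar at each median and dashed lines at 2-fold. The 4 Hox genes have a median of 0.45, the Polycomb genes -0.03, and the epicardial markers 0.87.

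The genes that flank the clusters, 3 on each side, had 17 of 22 members measured, 6 higher and 11 lower, with a median of -0.02, a range from -0.71 (Hnrnpa1, beside Hoxc) to 0.62 (Atp5g1) and 0 at 2-fold. Around Hoxb, Skap1, Ttll6 and Calcoco2 were under the floor, Snx11 was at -0.01, Cbx1 at -0.05 and Atp5g1 at 0.62. Beside Hoxd, Evx2, a homeobox gene, read 11.9 and 102, at least 1.12-fold higher. Among other homeobox families, 3 of 6 Iroquois genes were measured, all 3 of them higher, with Irx3 at 1.16. Of the Meox, Msx and Prrx genes 5 of 7 were measured, with 4 lower, among them Meox1 at -1.96 and Msx1 at -1.08. The Hox family thus had a smaller share above the floor on both arrays (12.1%) than these families (3 of 6 and 71.4%), values set side by side without a test.

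Markers of other cells also had different signals on the arrays. In this and the next paragraph, sums run over all genes of a list on the array, those under the floor included. Of 9 epicardial and mesothelial markers, 7 were measured and all 7 were higher in the mutant by their brightest probe set. Their median log2 ratio was 0.87, the value of Gpm6a, whose other measured probe set was at -0.12. The list summed to 4850 in the control and 8578 in the mutant. Upk3b was at 1.35, Lrrn4 at 1.22 and Wt1 at 0.42, while Msln was under the floor and Bnc1 above it in the mutant only. Of 7 neural crest markers on the array, 3 were measured, 1 higher and 2 lower, with a median of -0.30. Ednrb, which other cells also express, read 5377 and 9622, and Erbb3 was at -0.30 and Ngfr at -0.55, so that the list summed to 6906 and 10770. The defining crest genes Foxd3, Tfap2a and Tfap2b were under the floor on both arrays, and Sox10 read 137 and 64.3. Of 7 second heart field and pharyngeal markers, 5 were measured, 4 higher and 1 lower, with sums of 10110.5 and 10454. Isl1 read 98.9 and 153, with its other probe set lower at -0.68, Tbx1 112 and 116, and Fgf8 and Fgf10 were under the floor. The part of these cells in the Hox values was not tested.

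Of 8 limb and body wall markers 4 were measured, 2 higher and 2 lower, with sums of 3001 and 2375. Tbx5 was at 0.42 and Lhx9 at 0.06. Prrx1 (-0.75) and Prrx2 (-0.73) are also in the Meox, Msx and Prrx list above. Tbx4, Shox2, Pitx1 and Emx2 were under the floor on both arrays. Of 8 neural markers 4 were measured, all 4 lower by their brightest probe set, with sums of 4826 and 4017. Nes read 1993 and 1720, Tubb3 1604 and 1401 and Stmn2 969 and 656. Other probe sets went the other way for Stmn2 (0.46) and, at most 0.17, for Nes. Sox1, Pax6 and Olig2 were under the floor. Cushion mesenchyme genes had 6 of 6 measured, 1 higher and 5 lower, with Snai2 at -0.89 and Postn at -0.73, and sums of 44115 and 32976.5. Of 11 blood genes 3 were measured, all 3 lower, with sums of 15881 and 11639. These were the embryonic globin genes Hbb-y (9843 and 6606) and Hba-x (968 and 495), and Cd34 (4744 and 4272), which other cells also express. Ptprc, Gata1 and Spi1 were under the floor. Of 5 macrophage genes 1 was measured, Cd68, which was higher in the mutant (93.8 and 162), while Csf1r (144 and 80.6) and Cx3cr1 (226 and 47.8) were above the floor in the control only, and the list summed to 497 and 320. Of 8 cardiomyocyte genes 7 were measured, 3 higher and 4 lower, with a median of -0.16. Myl7 among them read 3811 and 6753, so that the list summed to 12949 and 15192, and Nkx2-5 was under the floor.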

How the data were processed

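Each array's deposited table gives 1 intensity per probe set. The authors made it by MAS5, as the submitters' processing notes state. MAS5 subtracts mismatch probe signals and scales each array, which makes ratios of dim probe sets noisy. After 2% of probe sets were left out at each end, both arrays had a mean of 500.0. Its software version and settings: not given in the sources used here. Of 45101 probe sets, 64 were array controls. By the platform annotation, 34945 others named 1 gene, 932 several and 9160 were not listed. Gene identifiers of 34741 matched the reference gene table, and 0 symbols changed.

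Signals were put on the log2 scale, with each array's median as the floor, in Python 3.11.15 with statsmodels 0.14.6 for loess. The text names every member above the floor on at least 1 array, from each cofactor, regulator, neighbour or other homeobox list the members at least 2-fold apart and otherwise up to 4 with the widest ratios, and from cell type lists the defining markers. Other genes named were chosen after their values were seen. The members and lists were chosen with earlier results of these data known. The calculation was tested on simulated data. Alternatives were 3 scalings, floors at the 25th and 75th percentile, a pseudocount, other rules for the probe set of a gene, and folds of 1.5 and 3. The number of arrays, 1 per genotype, limits the precision.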

Additional observations from a re-analysis of the deposited data

How the results depend on the processing

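The number of Hox genes above the floor on both arrays was 4 of 33, beside 10665 of all 18193 genes. It became 17 with the floor at the 25th percentile, beside 13588 genes, and 0 at the 75th percentile, beside 6247. When all probe sets of a gene were summarised by their median, it was 2 (Hoxa2 and Hoxb4), beside 9550 genes. The number at least 2-fold higher in the mutant, bounds included, was 1, and it became 2 with the floor at the 25th percentile (Hoxb3 joined by Hoxb2), 0 with the floor at the 75th percentile, where no Hox gene passed, and 4 with 1.5-fold in place of 2-fold. The number at least 2-fold lower was 0 under all 10 alternatives. The median log2 ratio of the measured members stayed above 0 in the 7 alternatives that gave one, from 0.21 to 0.68. Hoxb3 ranged from 1.29 with a pseudocount to 2.04, Hoxb2 from 0.73 to 1.71 and Hoxb4 from 0.58 to 0.75. Each of the 8 named Hox genes kept its direction wherever it had a value, which is a weak check. For Hoxa7, Hoxb2, Hoxb3 and Hoxc6 the direction of a bound follows largely from which array passed the floor. Hoxa3, Hoxa5 and Hoxc6 had no value with the median over probe sets, and the 2 Hoxa5 probe sets went opposite ways. The medians of related lists were recomputed under alternatives chosen after seeing the data. No paired analysis was possible because each genotype has 1 array, and no replicate could be left out. Signals near the floor limit Hoxa2, Hoxa5, Hoxa7, Hoxb2 and Hoxc6, and on the control array also Hoxb3.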

Other observations

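Some Hox transcripts stand outside the family as defined above. The antisense or opposite-strand transcripts Hoxa11os, Hoxb5os and Hoxd3os1 were under the floor on both arrays, with the brighter probe set of Hoxd3os1 at 35.1 (control) and 27.3 (mutant) and Hoxb5os at 36.9 and 2.93. A probe set shared by Hoxb8 and Hoxb7 read 13.2 and 17.9. The probe sets shared by Hoxd4 and Hoxd3 read 2.04 and 26.7, and 17.9 and 9.19, all under the floor.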
